A study of Rattus norvegicus with 6 samples.

Results

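The complement genes described here are Masp1, C1r, C1s, C3, Serping1, Cd55 and Cd59, 7 of the 20264 genes in a table of raw RNA-seq counts from rat nucleus pulposus cells (NPCs). They were selected on their gene names and on their values in the comparison of these same libraries, so their fold changes are given as a description and no p is read as support for them. Cd59 stands in the table as Cd59b, a gene for which RefSeq lists Cd59 as a synonym. NPCs are the cells of the gel-like centre of the intervertebral disc, and these came from the tail discs of male wild type Sprague-Dawley rats of 120 to 150 g and were grown in culture. All 6 libraries were from cells given the oxidant tert-butyl hydroperoxide (TBHP), which was used to induce senescence. The TBHP group (replicates 1 to 3) received TBHP alone and the TBHP+FGF21 group (replicates 1 to 3) received TBHP with recombinant rat FGF21, a secreted hormone-like growth factor. No library from cells without TBHP was analysed here. The dose, the duration and the age of the rats are not given for these libraries, and the replicates are called biological but are not tied to animals, so the p-values measure the spread between these samples. The treatment labels name FGF21 only for TBHP+FGF21 replicate 1, with FGF22 and FGF23 in those of replicates 2 and 3, while the titles, the design text and the study's methods place them in 1 group given FGF21.

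Complement is a cascade of plasma proteins that tags and lyses cells. In its classical pathway the protein C1q binds a target and switches on the serine proteases C1r and C1s, and in its lectin pathway the sugar-binding proteins of the mannose-binding lectin and ficolin families do the same with the MASP proteases. Both routes, and the alternative pathway, lead to cleavage of C3, and host cells are shielded by inhibitors in the fluid and on the membrane. The liver makes most complement of the blood, and fibroblasts and other connective tissue cells can also make some of its components. The Masp1 gene encodes the proteases MASP-1 and MASP-3 and a shorter protein without protease activity by alternative splicing, and the counts per gene do not separate them.

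RefSeq's promoter table (GRCr8, 300 bases around each start site, most of them before it) held 4 of the 7 members, namely Masp1, C1r, C3 and Cd55. Those of Masp1 and C1r are shown because these 2 genes had the largest fold changes of the 4. Both are on the + strand of the build, at chr11:90839472-90839771 for Masp1 and at chr4:159098763-159099062 for C1r, and capitals mark a match to the motif of the C/EBP factors.
Masp1: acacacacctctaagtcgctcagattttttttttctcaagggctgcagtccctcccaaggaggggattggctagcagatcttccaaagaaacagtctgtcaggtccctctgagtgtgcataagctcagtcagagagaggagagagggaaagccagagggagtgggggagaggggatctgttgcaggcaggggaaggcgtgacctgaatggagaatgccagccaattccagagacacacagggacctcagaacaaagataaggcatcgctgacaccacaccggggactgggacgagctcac
C1r: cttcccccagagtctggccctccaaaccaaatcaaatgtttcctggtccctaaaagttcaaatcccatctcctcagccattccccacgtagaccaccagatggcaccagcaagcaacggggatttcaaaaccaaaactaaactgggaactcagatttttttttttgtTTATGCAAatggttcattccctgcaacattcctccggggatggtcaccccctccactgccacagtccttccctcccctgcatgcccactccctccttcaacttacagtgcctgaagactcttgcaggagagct

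Both strands were searched for the STAT motif TTCNNNGAA, the AP-1 motif TGANTCA, the C/EBP motif TTGCNNAA and the consensus of NF-kappaB, motifs of factors that act in inflammatory gene expression. No match to any of them lay in the Masp1 and Cd55 windows. The C/EBP motif occurred in the C1r window, read on the reverse strand, as TTATGCAA starting at position -83 from the gene start, and in the C3 window, as TTGCGAAA at position -104. Of all 33469 promoters in that table, 10.6% held the C/EBP motif, 8.87% the STAT motif, 7.33% the AP-1 motif and 7.51% the NF-kappaB consensus. The G and C content was 54.3% in the Masp1 window, 50.3% in that of C1r, 58.3% in that of C3 and 63.7% in that of Cd55.

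The libraries held between 18277732 and 22426190 counts. A count of 3, the upper limit that a count of 0 allows, corresponded to between 0.131 and 0.168 CPM, the count scaled to the library total with edgeR's TMM factors, a limit that covers counting error only. TBHP+FGF21 replicate 2 stood apart from its group. Across genes its mean Spearman's rho was 0.996 with the TBHP libraries and 0.990 with replicates 1 and 3 of its group. TBHP replicate 3 was also nearer to the other group, but by less, with 0.9938 for the TBHP+FGF21 libraries and 0.9931 for the other TBHP libraries. Members are therefore given both ways for TBHP+FGF21 replicate 2, with it and leaving it out. Of 8 notochordal markers in the table, Tbxt, Shh and Noto had no reads in any library and Foxa2 and Krt18 failed the filter on low counts, while Cdh2, Krt8 and Cd24 were tested, with 5110, 418 and 200 reads in all. In the same libraries the cartilage collagen gene Col2a1 had 9 to 14 reads, while the cartilage proteoglycan gene Acan had 47999 to 99894. Of 11 macrophage and leukocyte markers 5 were at 0 in every library (Ptprc, Adgre1, Cd163, Mrc1 and Tyrobp), and the summed level of that list was 32.5 to 38.3 CPM in the TBHP group and 27.0 to 33.4 CPM in the TBHP+FGF21 group, most of it Cd14. Of 5 hepatocyte markers 4 were at 0 (Alb, Ttr, Fga and Fgb). In bulk libraries, fewer cells of a type and less RNA per cell cannot be told apart.

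Masp1, C1r, C1s and the inhibitor gene Serping1 were higher in replicates 1 and 3 of the TBHP+FGF21 group than in any TBHP library. The share of all genes with this pattern was not counted. Without replicate 2, 3.78% of all genes were called higher after adjustment in edgeR. The membrane inhibitors Cd55 and Cd59 did not show the pattern, and C3 was near the limit of detection. Masp1 was at 70.9, 70.4 and 75.9 CPM in the TBHP group (replicates 1, 2 and 3, in this order throughout), and at 133, 79.3 and 145 CPM in the TBHP+FGF21 group. No TBHP+FGF21 library fell to the range of the TBHP group, but replicate 2 exceeded it only by 3.32 CPM, close to the SD of the TBHP group. The means were 72.4 ± 3.08 and 119 ± 34.9 CPM (SD, n = 3 each), giving a log2 fold change of 0.72 with a standard error (SE) of 0.18 by edgeR. Relative to the TBHP mean, replicates 1, 2 and 3 of the TBHP+FGF21 group were at 1.84-fold, 1.09-fold and 2.00-fold. The value was 0.95 (SE 0.10) without TBHP+FGF21 replicate 2 and 0.56 without replicate 3.

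**Figure D1:**
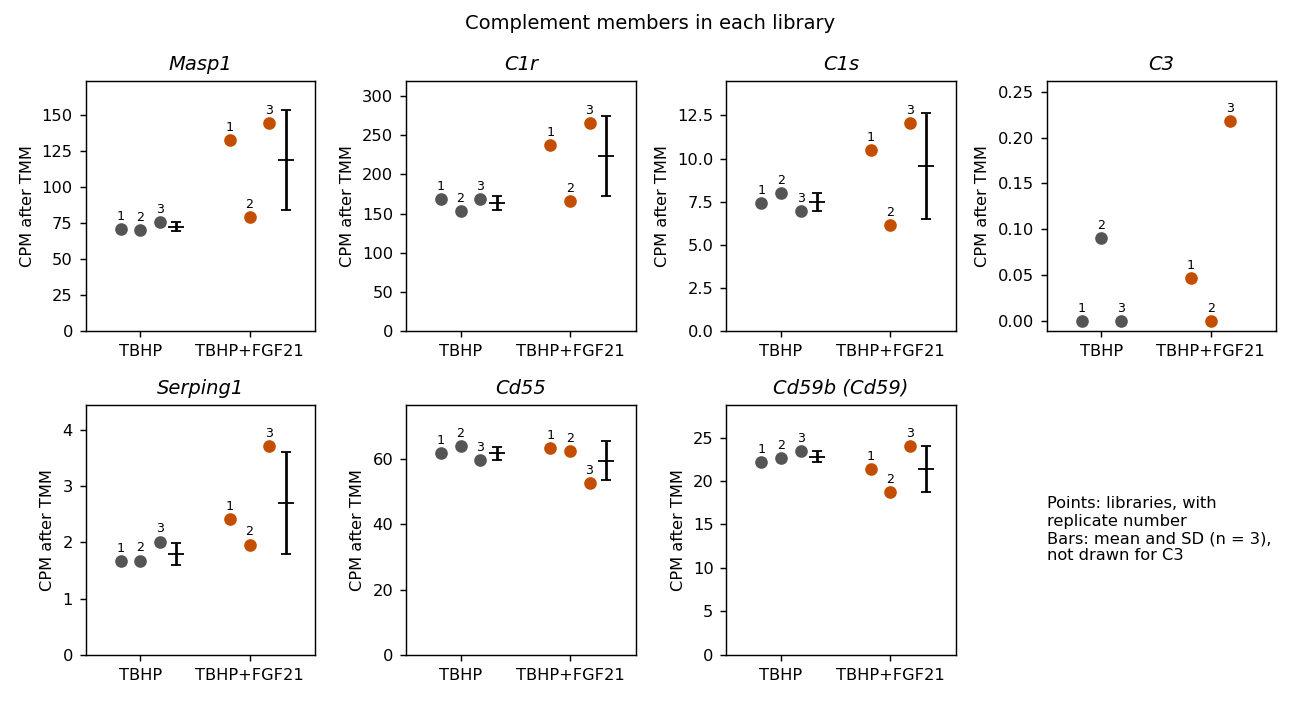
Level of each complement member in each library, in CPM after TMM scaling on linear axes, for the TBHP group (grey) and the TBHP+FGF21 group (orange). Numbers are replicate numbers and bars show the mean and SD of 3 libraries, not drawn for C3. Replicates 1 and 3 of the TBHP+FGF21 group lie above all TBHP libraries for Masp1, C1r, C1s and Serping1, with replicate 2 near or among the TBHP libraries, and C3 reaches 0.218 CPM at most.

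C1r, the protease that C1q activates first, had the most reads of the members, 24612 over the 6 libraries. Its level was 169, 154 and 168 CPM in the TBHP group and 238, 167 and 266 CPM in the TBHP+FGF21 group. TBHP+FGF21 replicate 2 lay within the range of the TBHP group, so the groups overlapped. The means were 164 ± 8.67 and 223 ± 51.1 CPM (SD, n = 3 each), and the log2 fold change was 0.45 (SE 0.14), or 0.63 (SE 0.10) without TBHP+FGF21 replicate 2.

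C1s, which C1r cleaves and which then cleaves C4 and C2, was at 7.43, 8.03 and 6.98 CPM in the TBHP group and at 10.5, 6.17 and 12.1 CPM in the TBHP+FGF21 group. The lowest and the highest of the 6 libraries both belonged to the TBHP+FGF21 group. C1s had a log2 fold change of 0.36 (SE 0.21). The value rose to 0.60 (SE 0.16) without TBHP+FGF21 replicate 2 and was 0.16 without replicate 3, so either library moved it by more than 1.5 times. RefSeq lists a pseudogene of C1s, C1s-ps1, on the same chromosome, so the assignment of C1s reads is uncertain.

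Serping1 encodes the C1 inhibitor, which blocks C1r, C1s and the protease MASP-1. It had 30, 37 and 43 reads in the TBHP group and 51, 41 and 85 reads in the TBHP+FGF21 group, or 1.68, 1.68 and 2.02 CPM against 2.42, 1.96 and 3.71 CPM. TBHP+FGF21 replicate 3 was the highest library and replicate 2 lay below the highest TBHP library. The log2 fold change was 0.59 (SE 0.27), 0.78 (SE 0.26) without TBHP+FGF21 replicate 2 and 0.29 without replicate 3.

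C3, the component on which all routes converge, had 0, 2 and 0 reads in the TBHP group and 1, 0 and 5 reads in the TBHP+FGF21 group. With 8 reads in all it failed the filter on low counts, and no fold change is given. TBHP+FGF21 replicate 3, at 0.218 CPM, was the single library above the limit that a count of 0 allows. A difference in C3 was not detectable at this depth.

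Cd55, which speeds the decay of the C3-cleaving enzymes on host cells, was at 61.7, 63.8 and 59.8 CPM in the TBHP group and 63.3, 62.5 and 52.6 CPM in the TBHP+FGF21 group. The 2 groups overlapped, with TBHP+FGF21 replicate 3 the lowest library. Its log2 fold change was -0.05 (SE 0.10), -0.08 without TBHP+FGF21 replicate 2 and 0.03 without replicate 3, so its sign turned on a single library. Cd59, whose protein stops assembly of the membrane attack complex, was at 22.2, 22.7 and 23.5 CPM and at 21.4, 18.7 and 24.0 CPM. Its log2 fold change was -0.09 (SE 0.12) and 0.0030 without TBHP+FGF21 replicate 2, where the sign also turned.

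Of the 7 members, 6 passed the filter on low counts. By edgeR, with adjustment over the 11426 genes tested, no member passed 0.05, where 0.00875% of genes did, and the adjusted p was 0.553 for each of Masp1, C1r and Serping1. At an unadjusted p under 0.05 there were 3 members, namely Masp1, C1r and Serping1, all higher, beside 4.63% of all genes that were higher and 8.92% in either direction. None was also beyond 1 in the size of its log2 fold change, a joint threshold met by 0.534% of genes. Masp1 was the single member with no overlap between groups, and 4.9% of all genes were higher with no overlap. The median log2 fold change of the 6 members was 0.40, beside -0.0052 over all genes tested.

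Without TBHP+FGF21 replicate 2, 3 members passed 0.05 after adjustment in edgeR, all higher, where 3.78% of all genes were called higher. That library was left out because it resembled the TBHP libraries, and this choice can by itself raise the number called. In either direction 867 genes were called, against 1 with all libraries. The p-values of that fit are therefore a description and are not read as support. The adjusted p values were 2.96e-05 for Masp1, 0.00115 for C1r, 0.0265 for C1s and 0.0791 for Serping1. For Masp1 the adjusted p by edgeR lay between 0.241 and 0.982 when any other library was left out. Without TBHP replicate 3, log2 fold changes were 0.76 for Masp1, 0.48 for C1r, 0.32 for C1s and 0.70 for Serping1. Those of Cd55 and Cd59 were -0.07 and -0.06, and no member passed 0.05 after adjustment by edgeR. With the single library whose label names FGF21 (replicate 1) set against the 3 TBHP libraries, a fit in which the lone library is assumed to vary like the others, Masp1 was at a log2 fold change of 0.88 and C1r at 0.54. Both were called in that fit, where 1.19% of all genes were called higher. Relative to the TBHP mean, C1r was at 1.45-fold, 1.02-fold and 1.62-fold in the libraries labelled FGF21, FGF22 and FGF23, and C1s at 1.40-fold, 0.826-fold and 1.61-fold, so the library labelled FGF22 was the lowest of the 3 for both.

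**Figure D2:**
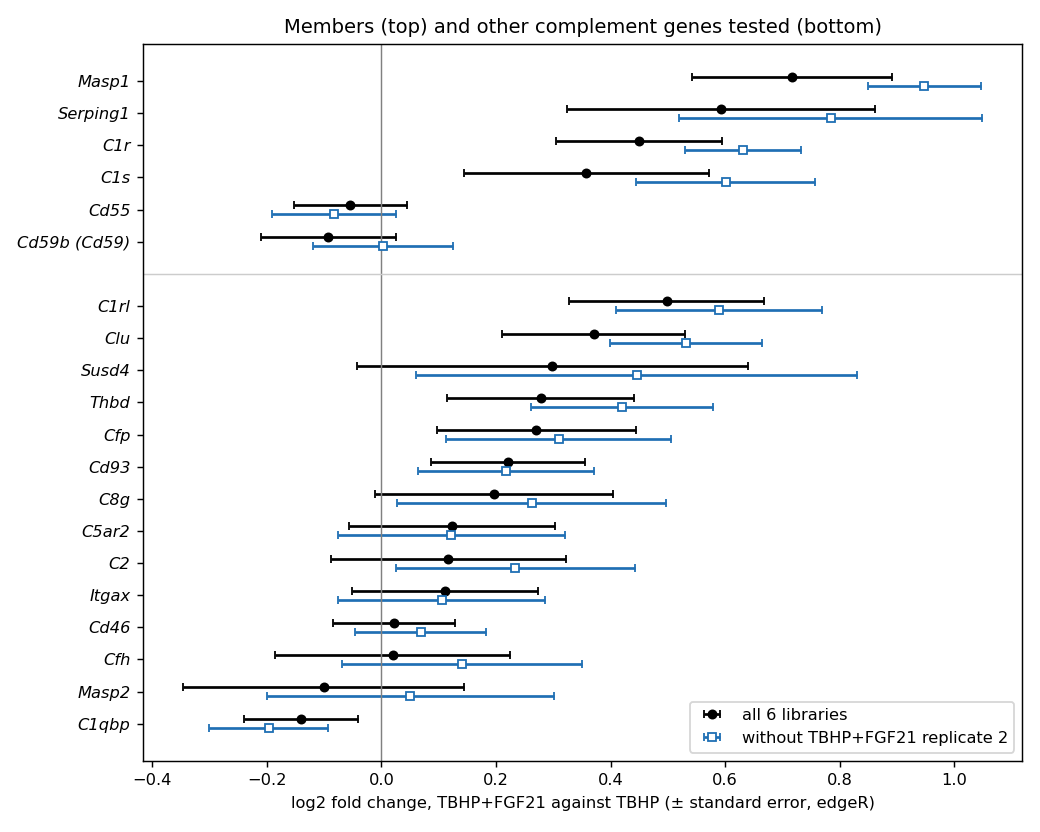
Log2 fold change of TBHP+FGF21 against TBHP for the 6 members tested (top) and the 14 other complement genes tested (bottom), with standard errors from edgeR, for all libraries (filled) and without TBHP+FGF21 replicate 2 (open). Masp1, Serping1, C1r and C1s lie between 0.36 and 0.72 with all libraries and between 0.60 and 0.95 without that replicate, while Cd55 and Cd59 lie near 0.

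Many other genes of the cascade had few or no reads in the table. A row near 0 does not by itself show that a gene was silent, since the collagen gene Col1a2 had 72 reads in all and its partner chain Col1a1 had 4692995. Of 46 further complement genes listed, 38 were in the table and the other 8, namely Mbl2, Colec11, C4a, C4b, Cfb, C7, Cr1l and C5ar1, were not analysed here. No read was found in any library for 13 of the 38. These were the C1q subunit genes C1qa, C1qb and C1qc, the lectin and ficolin genes Mbl1 and Fcnb, the terminal pathway genes C6, C8a, C8b and C9, the regulator Vtn and the receptor genes C3ar1, Cr2 and Vsig4. Another 11 had reads but failed the filter, such as the ficolin gene Fcna with 50 reads over the 6 libraries. The remaining 14 were tested. At an unadjusted p under 0.05, 2 of the 14 (C1rl and Clu) were higher and none was lower in the edgeR fit, beside 8.92% of all genes in either direction, and none passed the adjustment over all genes. Of the 14, 12 had a positive log2 fold change and 2 a negative one, with a median of 0.16, where 48.9% of all genes tested were positive. The count of 2 was 0 without TBHP+FGF21 replicate 3, 1 without TBHP replicate 1 or TBHP replicate 2, and 3 without TBHP+FGF21 replicate 2.

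**Figure D3:**
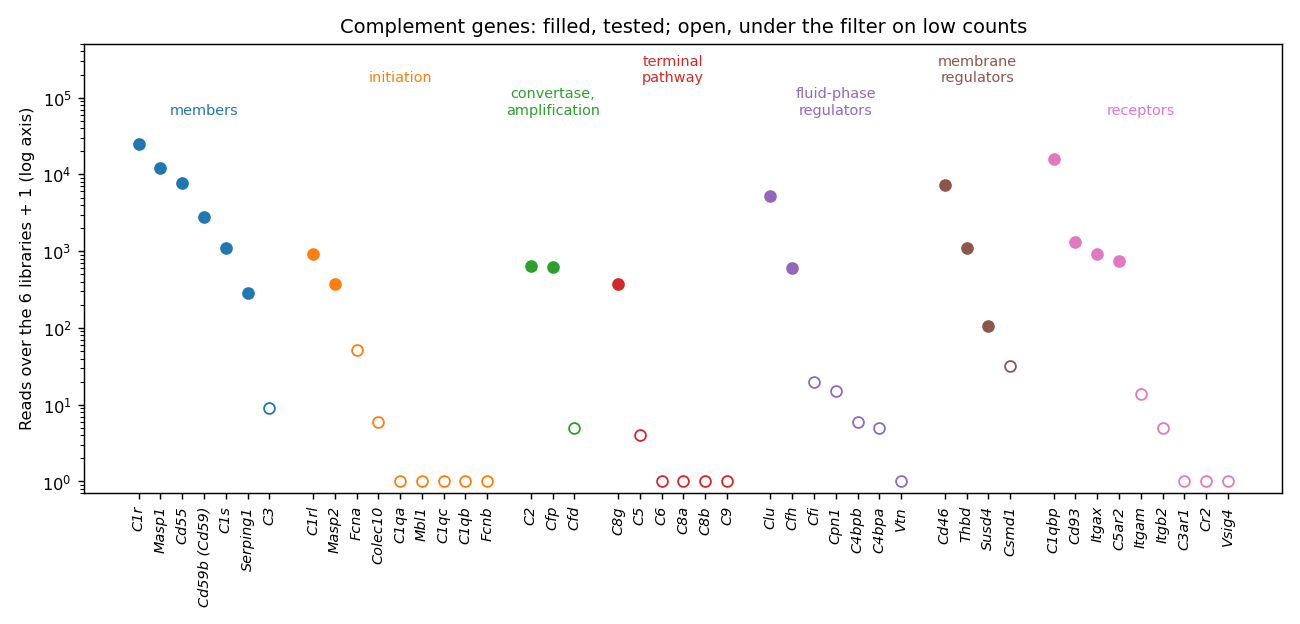
Reads summed over the 6 libraries plus 1, on a log axis, for the 7 members and the 38 other complement genes in the table, grouped by role. Filled points were tested and open points failed the filter on low counts: C1r and Masp1 have 24612 and 12221 reads, whereas C1qa, C1qb and C1qc have 0 reads and C3 has 8.

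Among the genes of the initiation step, C1rl, a C1r-like protease gene, was at 6.42, 6.17 and 5.30 CPM in the TBHP group and at 7.58, 7.42 and 10.2 CPM in the TBHP+FGF21 group. All 3 TBHP+FGF21 libraries were above all TBHP libraries, replicate 2 included, as for 4.9% of all genes. Its log2 fold change was 0.50 (SE 0.17; edgeR adjusted p = 0.553), and 0.34 when TBHP+FGF21 replicate 3 was left out. In RefSeq's annotation C1rl, C1r and C1s are consecutive protein-coding genes of chromosome 4. Masp2, the other gene of this step that was tested and a lectin pathway protease, is named after its values were seen, as the rule for naming genes did not take it. It had 39, 84 and 64 reads in the TBHP group and 67, 46 and 70 reads in the TBHP+FGF21 group, with overlapping groups and a log2 fold change of -0.10 (SE 0.25) that turned to 0.05 without TBHP+FGF21 replicate 2. A non-coding RNA gene, LOC102553847, overlaps C1r there, and Rtp4 overlaps the span of Masp1. The library kit is named as directional, but reads fell on both strands in nearly equal number (6022 and 6199 for Masp1), so reads of overlapping or antisense transcripts could not be set apart.

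Among the convertase genes, C2, the substrate of C1s, was at a log2 fold change of 0.12 (SE 0.21) and turned to -0.10 without TBHP+FGF21 replicate 1. Cfp, which encodes properdin, a stabiliser of the alternative pathway convertase, was at 3.69, 4.58 and 4.88 CPM and at 5.07, 5.07 and 5.75 CPM. Its groups did not overlap, with 0.194 CPM between them, where 4.9% of all genes were higher with no overlap. The log2 fold change of Cfp was 0.27 (SE 0.17; edgeR adjusted p = 0.600). C8g, the single terminal pathway gene tested, was at 0.20 (SE 0.21).

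Among the regulators in the fluid, Clu encodes clusterin, a chaperone that also binds the terminal complex. Clu was at 35.8, 32.5 and 39.8 CPM in the TBHP group and at 43.4, 36.3 and 59.9 CPM in the TBHP+FGF21 group. Replicate 2 again lay among the TBHP libraries. Its log2 fold change was 0.37 (SE 0.16; edgeR adjusted p = 0.553), 0.53 without TBHP+FGF21 replicate 2 (edgeR adjusted p = 0.0224) and 0.15 without replicate 3. On the membrane, Cd46, a cofactor in the cleavage of C3b, was at 0.02 (SE 0.11), and Thbd, which encodes thrombomodulin, was at 0.28 (SE 0.16). Among the receptors the values were -0.14 (SE 0.10) for C1qbp, a protein that binds C1q and resides mostly in mitochondria, and 0.22 (SE 0.13) for Cd93, which was at 0.014 with reads of 1 strand column alone.

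The members' pattern over the libraries was compared with that of Masp1 by the root mean square difference of log2 CPM, centred on each gene's own mean, over the 6 libraries. Of 11425 other genes, C1r was 48th in likeness, with a difference of 0.15, Serping1 95th with 0.18 and C1s 169th with 0.21. Cd59 was at 4420 and Cd55 at 6985 in this order. The 5 genes nearest to Masp1 were Islr, which encodes a leucine-rich repeat protein, Lama2, a laminin chain gene, Gli2, a transcription factor gene of the Hedgehog pathway, Per1, a circadian clock gene, and Mob3b, with differences of 0.05, 0.07, 0.07, 0.10 and 0.10. These are descriptions over 6 libraries that share the same split of replicate 2 from replicates 1 and 3, and not tests.

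**Figure D4:**
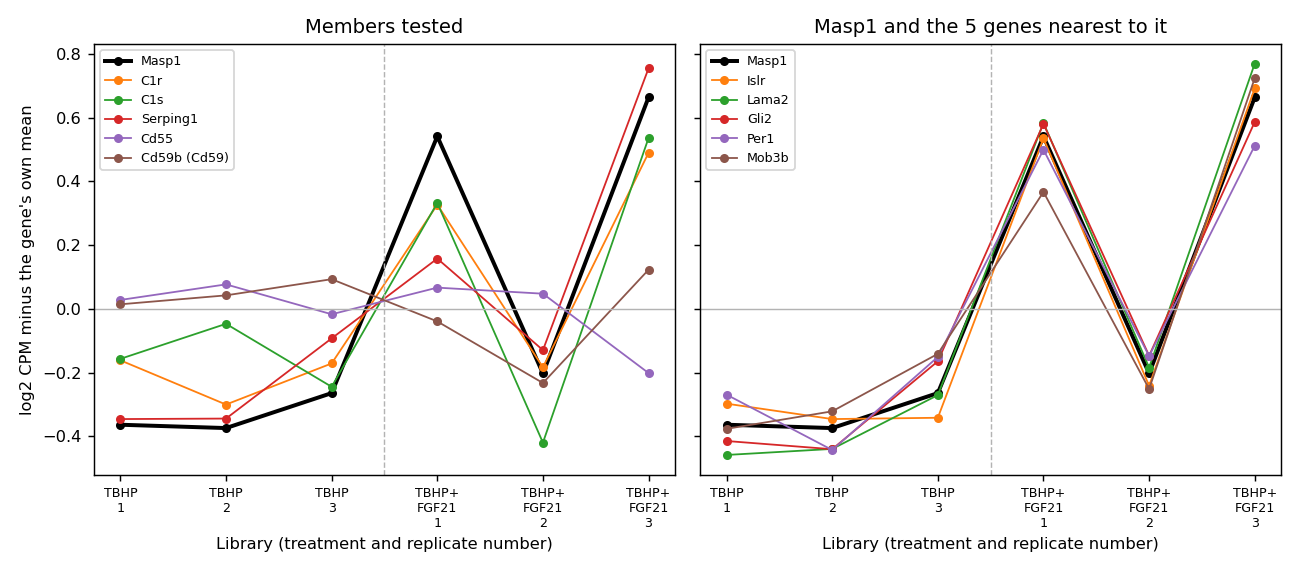
Log2 CPM of each library minus the gene's own mean for the members tested (left) and for Masp1 with the 5 genes nearest to it (right). Lines join the points of a gene to guide the eye, since replicates have no order. Masp1, C1r, C1s and Serping1 are high in replicates 1 and 3 of the TBHP+FGF21 group and low in replicate 2. Cd55 does not follow this pattern. Cd59 is also lowest in replicate 2 and highest in replicate 3 of that group, but its replicate 1 lies below the TBHP libraries.

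Some markers of cell identity differed between the groups before adjustment, and none passed 0.05 after adjustment by edgeR over all genes. At an unadjusted p under 0.05 by edgeR, Acan and Sox9, the latter encoding a chondrocyte transcription factor, were higher (log2 fold changes 0.40 and 0.56), 2 of the 6 chondrocyte-like markers tested, beside 4.63% of all genes. The other 4 did not pass, with values of 0.11 for Hapln1, -0.11 for Comp, -0.26 for Col2a1 and -0.48 for Chad, whose groups did not overlap. The list summed to 2613 to 3052 CPM in the TBHP group and 2969 to 4466 CPM in the TBHP+FGF21 group, nearly all of it Acan. Of the 3 notochordal markers tested none passed, and Krt8 was at -0.43 with every TBHP+FGF21 library below the TBHP range. The share of all genes that were lower with no overlap, as Krt8 and Chad were, was not counted. Of the 8 fibroblast and annulus fibrosus markers tested, Pdgfra was higher at 0.39 and Scx, a tendon transcription factor gene, lower at -0.39. In either direction 8.92% of all genes passed. The other markers of that list did not pass. Their values were -0.19 for Col1a1, 0.08 for Col1a2, -0.0008 for Col3a1, 0.06 for Thy1, -0.08 for Dcn and 0.10 for Lum. That list summed to 42822 to 47357 CPM in the TBHP group and 32493 to 44780 CPM in the TBHP+FGF21 group, most of it Col1a1. For Acan, Sox9, Pdgfra and Scx the edgeR adjusted p was 0.553 each and the groups overlapped. Their TBHP+FGF21 replicate 2 was at 1.06-fold, 1.06-fold, 0.972-fold and 0.969-fold of the TBHP mean. The part of the cell markers in the values of the complement genes was not tested.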

How the data were processed

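RNA-seq libraries of rat NPCs (3 TBHP, 3 TBHP+FGF21) were grouped by title. The authors deposited raw counts per Ensembl identifier for each library, and a combined table per symbol, used here, of the class of expected or estimated counts because 22 of its rows are not whole; these were rounded up. STAR and featureCounts are named in the submitters' processing notes; versions, build and annotation are not given in the sources used here. Reads assigned to no gene (18.5% to 20.9%) were left out. Members were linked to Ensembl identifiers by identical counts in every library. That their sums were the same in both kinds of file is therefore no check.

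Counts were filtered by filterByExpr (minimum count 10, minimum total 15), scaled by TMM and tested with edgeR 4.0.16 in R 4.3.3 (glmQLFit, glmQLFTest, condition only, Benjamini-Hochberg over 11426 genes). The paper names Student's t-test and ANOVA for its data in general; edgeR was used because these are counts. Standard errors are the log2 fold change over the square root of F. DESeq2 1.42.0, limma 3.58.1 (voom) and the other alternatives are given in the closing section. Fits were tested on simulated counts. Within groups no libraries matched to within sampling noise (chi-square 6.94 to 44.4 per gene). Members and lists were chosen with earlier results of these data known. Other complement genes are named if their unadjusted p was under 0.05, or if highest in mean CPM or lowest in p in their role; no transcript lengths were used, so highest CPM served to pick names only. Proteins were not compared, since no protein sequences were used here.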

Additional observations from a re-analysis of the deposited data

How the results depend on the processing

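The direction of Masp1, C1r, C1s, Serping1, C1rl and Clu was the same in all alternatives run, and the largest changes came from replicates 2 and 3 of the TBHP+FGF21 group. Apart from the fits with fewer libraries, the log2 fold change of Masp1 lay between 0.67 and 0.73 (adjusted p 0.0547 to 0.569, lowest in edgeR with no filter), and leaving out each library gave 0.56 to 0.95. No member had an adjusted p under 0.05 with DESeq2 or limma-voom. Members at an unadjusted p under 0.05 numbered 2 with DESeq2, 2 with limma-voom and 3 in the edgeR fit of all libraries. By edgeR with each library left out they numbered 2 to 4. Correlations of deviations were -0.12, 0.21 and 0.15 for replicate numbers 1, 2 and 3, and -0.26 to 0.18 between unlike numbers. With 3 replicates per group they cannot decide whether the numbers pair the samples. With the replicate number as a replicate block, Masp1 was at 0.67 (adjusted p = 0.103), and 2 genes were called with 1599 at an unadjusted p under 0.05, against 1 and 1019.

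Genes called at 0.05 after adjustment numbered 4 with DESeq2's Wald test, 0 with limma-voom, 5 with no filter, 0 with counts from the files of single libraries, whether unstranded or of strand column 4, 325 with the library labelled FGF21 alone (1669 at an unadjusted p under 0.05) and 0 to 867 with each library left out (337 to 2732 at an unadjusted p). Members called numbered 2 with the library labelled FGF21 alone and 0 to 3 with each library left out, and other complement genes 0 to 1. At an unadjusted p, other complement genes numbered 2 with all libraries, 1 with limma-voom or that library alone and 0 to 3 with each library left out. Signs reversed for Cd55 (0.041 with that library alone, -0.091 to 0.034 with each left out), Cd59b (-0.18 to 0.0030), C2 (-0.10 to 0.23), Masp2 (-0.10, and 0.05 without TBHP+FGF21 replicate 2, the single alternative computed for it) and Cd46 (-0.089 with that library alone, -0.068 to 0.088). The cause was not tested. Of the 7 members depth limits C3 most, at 8 reads.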
